A study of Caenorhabditis elegans with 8 samples.

Results

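The subject here is how the response of adult Caenorhabditis elegans to fasting differed between worms given cholesterol and worms deprived of it. For each gene the fasting response was taken at each cholesterol state as the fasted minus the fed log2 level, and the response with cholesterol was subtracted from the response without it. This difference, called the interaction below, is positive where fasting moved a gene further up, or less far down, in deprived worms. All 8 arrays of the series entered it, and 17118 of 17118 genes with a probe set of their own were described. The worms were of the wild-type laboratory strain N2, and the labels name no mutation or transgene in any group. The 4 groups, with 2 arrays each, were fed worms given cholesterol (Chol (+) fed), fasted worms given cholesterol (Chol (+) fasting), fed worms deprived of cholesterol (Chol (-) fed) and fasted worms deprived of cholesterol (Chol (-) fasting). Deprivation began at hatching, FUDR, which stops progeny from developing, was in the plates of every group from the young adult stage, and all were collected on day 4 of adulthood. The labels give the fast as 24 h in one field and as 48 h from day 2 in another, so its length is not settled. Whole worms were assayed, so fewer cells of a type and less RNA per cell cannot be told apart. The labels call the arrays of a group independent replicates and do not say what was separate, and the p values measure only the spread between them.

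Nematodes cannot build the sterol ring and take cholesterol from food. They need little of it for membranes, and they convert it to dafachronic acids, steroid hormones that bind the nuclear receptor DAF-12. When food is withdrawn, C. elegans draws on intestinal fat through lysosomal lipases and fatty acid oxidation, shifts acetyl units into sugars through the glyoxylate cycle, and lowers many digestive and immune genes of the intestine. The FOXO transcription factor DAF-16, which insulin-like signalling holds outside the nucleus, activates stress and metabolic genes, and the nuclear receptor NHR-49 drives fat oxidation genes in fasted worms. The series title names cholesterol, the nuclear location of DAF-16 and longevity on fasting, and the crossed design lets the fasting response be compared between cholesterol states.

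Array medians lay between 66.7 and 70.9 intensity units, and replicate arrays correlated at r = 0.992 to 0.994 across probe sets against 0.972 to 0.992 for arrays of different groups. The 3′ minus 5′ log2 difference of the GAPDH control probe sets, a sign of RNA integrity, was 0.18 to 0.45 over the 8 arrays and overlapped between all groups, and that of actin was 1.595 to 1.99 and also overlapped. That of ubiquitin did not overlap between all groups, at 3.54 to 3.55 in fed and 3.61 to 3.63 in fasted worms given cholesterol and 3.41 to 3.495 in fed and 3.51 to 3.63 in fasted deprived worms, and its part in the results was not tested.

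Fasting moved many genes alike at both cholesterol states, and a small set differently. With cholesterol, fasting changed 2462 genes (14.4% of those tested, at a limma adjusted p under 0.05), and without it 1376 (8.04%). The sets of arrays behind these 2 differences do not overlap, but each gene's estimate of the spread came from all 8 arrays. The calls at the 2 states are therefore not independent. The same way in both were called 857 genes, and 6 were called opposite ways. The responses correlated at r = 0.713 across genes, which are not independent replicates. The difference between the responses was called for 93 genes (0.543%), 52 higher (0.304%) and 41 lower (0.24%) without cholesterol. These 93 were sorted by the size of the fitted responses, with 0.5 on the log2 scale as the smallest response counted, a description with no test of its own. In 34 genes the response was lost, in 17 it was blunted, in 6 it turned, in 20 it was enlarged, and in 16 it was gained, meaning that it was under 0.5 with cholesterol and larger without. Among the 93, 59 fell and 18 rose with cholesterol, against 7.31% and 7.07% of all genes. Without cholesterol 40 fell and 15 rose, against 3.98% and 4.05%. The interaction ranged in size from 0.90 to 4.10 with a median of 1.42.

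The number of calls differed between processing settings. Across all probe sets 115 of 22548 were called (0.51%; 13.8% and 7.67% for fasting with and without cholesterol, 4.38% and 3.48% for deprivation in fed and fasted worms), against 22 without the replicate number as a block and 14 with a pseudocount of 16 in place of 1. At an unadjusted p under 0.05 there were 3446 probe sets. Omitting replicates 1 and 2 in turn gave 47 and 100 for Chol (+) fed, 36 and 29 for Chol (+) fasting, 20 and 26 for Chol (-) fed, and 26 and 29 for Chol (-) fasting. No called gene changed sign in any of these settings, and 8 genes passed in every alternative that tested them: aqp-1, F42A10.7, cnc-7, cnc-4, lips-14, srlf-3, lys-2 and T21H3.1. The genes adh-1, col-183, ugt-41, F14H12.3 and ZK1320.2 also passed without each array in turn. For the interaction of fasting and cholesterol deprivation, 57.4% of the 115 called probe sets were higher, and the share was 46.8% when the arrays were shifted to equal medians of the brightest probe sets.

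**Figure D1:**
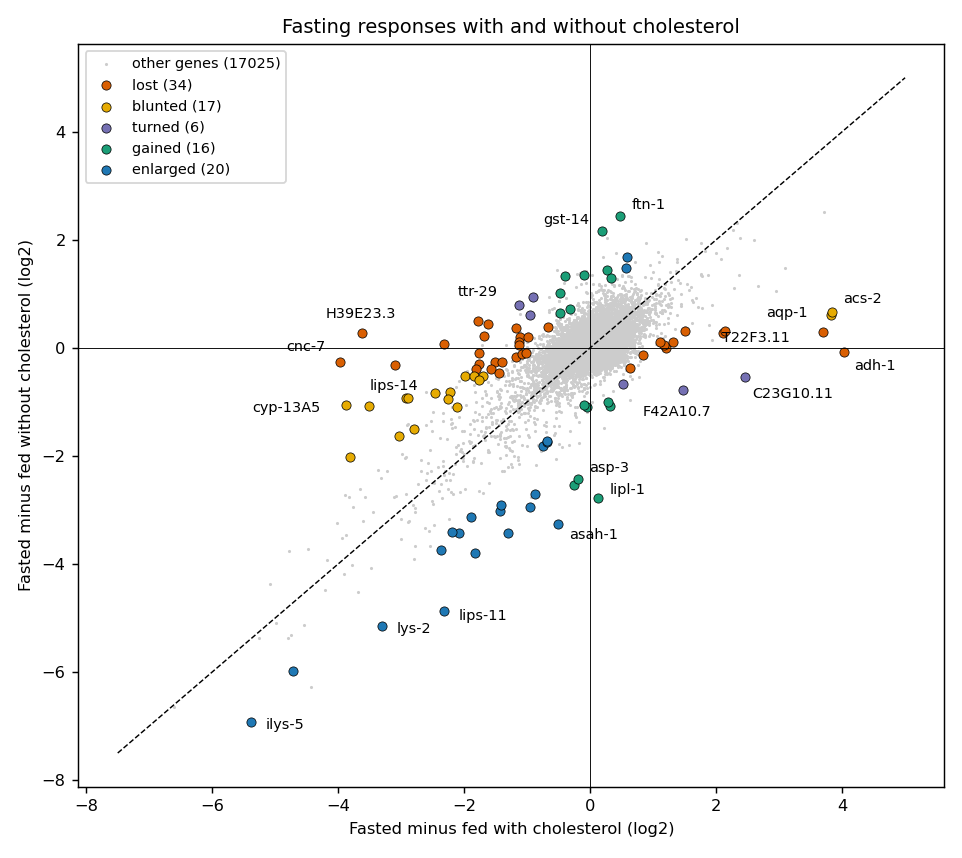
Fasted minus fed log2 difference with cholesterol (x axis) against the same without cholesterol (y axis), 1 point per gene, from group means of 2 arrays. The 93 called genes are coloured by how the response differed; points on the dashed line have equal responses, and the lost responses lie along the horizontal line at 0.

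Some genes with large responses to fasting had nearly equal values at both cholesterol states. Of 89 genes changed at least 4-fold the same way at both, 4 rose and 85 fell. Among the 89, 8 had a called interaction, against 0.543% of all genes. The 6 genes described next were picked as those of the 89 with the smallest interaction, so their near-equal values follow from the choice. The gene sysm-1, a target of the p38 immune pathway, changed by -6.61 with and -6.64 without cholesterol, and the 95% interval of the difference was -0.44 to 0.38. The invertebrate lysozyme gene ilys-2 changed by 2.33 with and 2.31 without cholesterol (interval -0.77 to 0.74), and the cuticle collagen gene col-8 by -2.02 with and -2.03 without cholesterol (interval -0.48 to 0.46). The claudin-like gene clc-1 (interval -0.74 to 0.67), dct-16 (-0.87 to 0.85) and C49C3.9 (-0.67 to 0.66) fell at least 4-fold at both states as well.

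Several metabolic genes that rose on fasting with cholesterol did not rise measurably, or rose less, without it, and most were already raised in fed deprived worms. The alcohol dehydrogenase gene adh-1 read 368 and 328 in fed and 4976 and 6478 in fasted worms given cholesterol, and 2981 and 3261 in fed and 2098 and 4186 in fasted deprived worms. Fed worms given cholesterol were low and the other 6 arrays high, with no array in between. Fasting raised adh-1 16.3-fold with cholesterol (4.02 ± 0.23, SE, n = 2 per group) and changed it by -0.073 ± 0.23 without (adjusted p = 0.9), an interaction of -4.10 ± 0.33, adjusted p = 0.00414. Deprivation raised it in fed worms by 3.16 ± 0.23 (adjusted p = 0.000628). The gene acs-2 encodes a synthetase that activates fatty acids for oxidation in mitochondria. It read 168 and 138 in fed and 1859.8 and 2600.1 in fasted worms given cholesterol, and 1186 and 1996 in fed and 2480.1 and 2413 in fasted deprived worms. Again the fed worms given cholesterol stood alone at the low end, and the fasted groups overlapped. The rise of 3.85 ± 0.23 shrank to 0.67 ± 0.23, which did not pass (adjusted p = 0.128; interaction -3.18 ± 0.32, adjusted p = 0.011), and the second acs-2 probe set had an interaction of -3.99 ± 0.21 (adjusted p = 0.00147), the smallest p of all probe sets.

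The aquaglyceroporin gene aqp-1, which lets glycerol and water cross membranes, was blunted from both sides. Its signal was 156 and 179.9 in fed and 2506 and 2268 in fasted worms given cholesterol, against 613 and 810.4 in fed and 919.9 and 1266 in fasted deprived worms. The fed deprived arrays lay above the fed arrays with cholesterol, and the fasted deprived arrays lay below the fasted arrays with cholesterol. The rise was 14.2-fold with cholesterol and 1.53-fold without (interaction -3.21 ± 0.21, adjusted p = 0.00284), and deprivation raised aqp-1 by 2.07 ± 0.15 in fed worms and changed it by -1.14 ± 0.15 in fasted worms. The gene icl-1 encodes the isocitrate lyase and malate synthase of the glyoxylate cycle. Its signal was 2080.2 and 1835 in fed and 4875 and 4809 in fasted worms given cholesterol, and 4179.8 and 3179.5 in fed and 4278 and 3602 in fasted deprived worms. Its fed arrays with cholesterol were the lowest, and the deprived groups overlapped. The response was 1.31 ± 0.12 with and 0.11 ± 0.12 without cholesterol (interaction -1.202 ± 0.17, adjusted p = 0.0305). Another icl-1 probe set was also called (-1.33 ± 0.15) and the remaining one was not (-1.12, adjusted p = 0.0597), and all 3 have names ending in _s_at or _x_at, so their signal may include other genes.

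In all, 13 genes that rose with cholesterol had a lost or blunted rise without it. Their median response was 1.51 with and 0.12 without cholesterol, which follows in part from the sorting. In 10 of the 13, fed deprived worms were called higher than fed worms given cholesterol, and in 4 fasted deprived worms were called lower than fasted worms given cholesterol. Of all genes, 4.7% were called for deprivation in fed worms (1.95% higher, 2.75% lower) and 3.66% in fasted worms (2.16% higher, 1.51% lower). A gene with a negative interaction must be higher in fed or lower in fasted deprived worms, so these counts follow in part from how the 13 were picked. The rise with cholesterol and the deprivation effect in fed worms also share the fed arrays with cholesterol. T22F3.11 changed by 3.70 with and 0.30 without cholesterol (interaction -3.40 ± 0.53, adjusted p = 0.0422), and its fasted arrays with cholesterol lay far apart, at 171 and 636. C35C5.8 (interaction -1.84 ± 0.27), F46C5.1 (-1.83 ± 0.28), the transporter-family gene mfsd-8.5 (-1.21 ± 0.17) and the cytochrome P450 gene cyp-37B1 (-1.21 ± 0.19) went the same way. The remaining lost rises included those of the saposin-like gene spp-27 (-1.11 ± 0.16) and the phosphate transporter gene pitr-5 (-1.002 ± 0.15). The others were those of the cathepsin B-like gene cpr-2 (-0.99 ± 0.15) and the beta-lactamase-domain gene lact-6 (-0.97 ± 0.15). All of these but cpr-2, which the naming rule took, were added after their values were seen, to complete the group. For spp-27, cpr-2 and lact-6 the fed levels with and without cholesterol were not called different, and the fasted deprived level was called lower. Further probe sets of T22F3.11 (-2.14, adjusted p = 0.0662) and C35C5.8 (-0.92, adjusted p = 0.0621) had the same sign and did not pass. Of these 13 interactions, those of adh-1, acs-2 and aqp-1 also passed without the replicate block, and that of aqp-1 also with a pseudocount of 16.

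**Figure D2:**
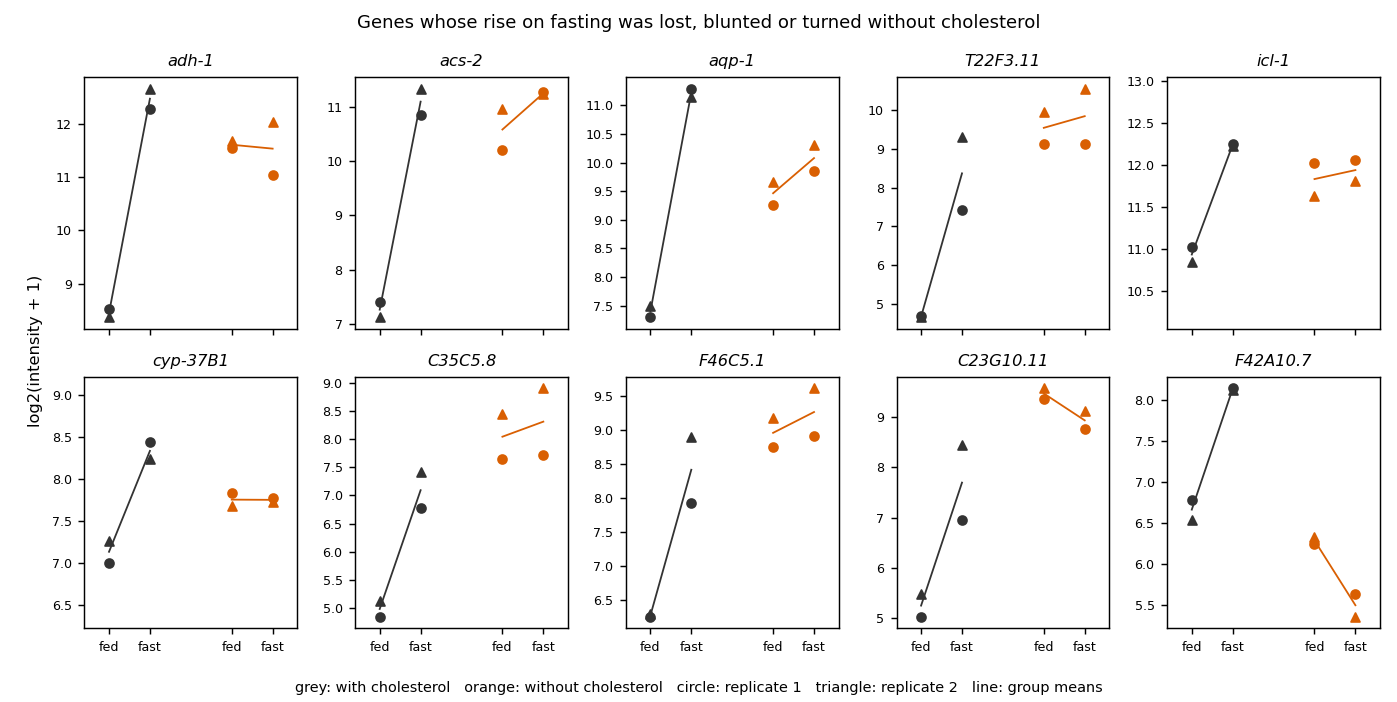
Log2(intensity + 1) on each array for 10 genes whose rise on fasting was lost, blunted or turned without cholesterol; dark grey marks worms given cholesterol, orange deprived worms, circles replicate 1, triangles replicate 2 and lines the group means. Apart from F42A10.7, the fed deprived arrays lie above the fed arrays with cholesterol in each panel.

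Several of these genes are known targets of DAF-16. Of 19 measured genes of a list activated by DAF-16, 7 rose and 2 fell on fasting with cholesterol, and 5 rose and 2 fell without it; 7.07% and 7.31% of all genes rose and fell with cholesterol, and 4.05% and 3.98% without. The interaction was called for 1 higher (ftn-1) and 3 lower (adh-1, aqp-1 and icl-1), against 0.304% and 0.24% of all genes, and 15 did not pass. At an unadjusted p under 0.05 there were 14 of the 19, against 15.28% of all probe sets, and the median interaction was -0.45 against -0.067 over all genes. The gene lists were chosen with earlier results of these data known, so these shares describe the list and do not test it. The superoxide dismutase gene sod-3, a standard DAF-16 reporter, rose by 0.69 ± 0.15 with cholesterol and had a value of -0.056 ± 0.15 without, but its interaction of -0.75 ± 0.21 did not pass (adjusted p = 0.212). The small heat shock genes hsp-12.6 (interaction -1.53 ± 0.34, adjusted p = 0.15) and hsp-12.3 (-1.90 ± 0.42, adjusted p = 0.145) had negative values that did not pass. The metallothionein gene mtl-1 had an interaction of 0.20 ± 0.29 (adjusted p = 0.754) and the lysozyme gene lys-7 one of -0.35 ± 0.25 (adjusted p = 0.52). Both hsp-12.3 and lys-7 were named outside the naming rule. Of 10 genes repressed by DAF-16, 5 fell with and 5 without cholesterol, and the interaction was called for 0 (limma, with 5 at an unadjusted p under 0.05). Their values included dod-24 (-3.001 with and -3.17 without cholesterol) and the insulin-like peptide gene ins-7 (-3.89 with and -2.72 without cholesterol, interaction 1.17 ± 0.33, adjusted p = 0.22).

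The transcript of daf-16 itself had an interaction of -0.24 ± 0.15 (adjusted p = 0.451, interval -0.58 to 0.10), its 3 other probe sets gave 0.18, 0.14 and -0.29, and that of the insulin receptor daf-2 was -0.16 ± 0.18 (adjusted p = 0.672). The genes that take up and use sterols gave no call either: among 18 genes of sterol transport and dafachronic acid synthesis, 0 passed the limma test, against 0.543% of all genes. At an unadjusted p under 0.05 there were 6 of the 18, against 15.28% of all probe sets. The values were -0.19 ± 0.14 for the hormone receptor daf-12, -0.39 ± 0.18 for the cytochrome P450 daf-9 that makes dafachronic acids, -0.25 ± 0.18 for the Niemann-Pick C1 homologue ncr-1 and 0.15 ± 0.16 for the receptor nhr-8. Among regulators of fat metabolism, nhr-49 was at 0.41 ± 0.17 (adjusted p = 0.316; -0.043 on its other probe set), its co-activator mdt-15 at -0.24 ± 0.16 and the SREBP homologue sbp-1 at -0.12 ± 0.14. The NHR-49 target hacd-1, a hydroxyacyl-CoA dehydrogenase, rose in both states (1.75 with and 1.94 without cholesterol), with an interval of the difference from -0.72 to 1.096. The fatty acid desaturase gene fat-7 fell at both states (-2.34 with and -1.199 without cholesterol, interaction 1.14 ± 0.34, adjusted p = 0.225), and fat-6 had an interaction of 0.066 ± 0.32. The lysosomal lipase gene lipl-4, whose rise of 1.14 ± 0.24 was called with cholesterol, had an interaction of -0.50 ± 0.34 (adjusted p = 0.503), and the vitellogenin vit-2 one of 0.34 ± 0.17 (adjusted p = 0.366). A difference that missed the threshold does not show that the responses were equal.

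The largest group of differences, 38 genes, was of genes that fell on fasting with cholesterol and fell less, or not measurably, without it. Their median response was -1.77 with and -0.30 without cholesterol. A fall was called for 38 of 38 with cholesterol and for 13 without, against 7.31% and 3.98% of all genes. The sorting required a fall of at least 0.5 with cholesterol and a smaller response without it, so these values restate it in part. In 23 of them the fed deprived level was called lower than that of fed worms given cholesterol, against 2.75% of all genes. In 19 the fasted deprived level was called higher than that of fasted worms given cholesterol, against 2.16%. A positive interaction requires a lower fed or a higher fasted level on deprivation, so these counts follow in part from how the 38 genes were picked. Secreted peptides of the epidermis were among them. The caenacins are small glycine-rich antimicrobial peptides that the skin makes on infection or wounding. The caenacin gene cnc-7 read 812 and 788 in fed and 45.3 and 55.5 in fasted worms given cholesterol, and 82.6 and 77.0 in fed and 53.2 and 82.1 in fasted deprived worms. Only the fed worms given cholesterol were high, and the other groups overlapped or lay close together. The fall of -3.97 ± 0.17 went to -0.27 ± 0.17 (interaction 3.70 ± 0.24, adjusted p = 0.00284), and a second, dimmer probe set gave 2.44 ± 0.29. Both probe sets have names ending in _s_at or _x_at, so their signal may include other genes. In the same family, cnc-4 read 1066 and 1155 in fed and 159 and 139.8 in fasted worms given cholesterol, and 531 and 504 in fed and 253 and 291 in fasted deprived worms. It fell at both states (-2.89 with and -0.93 without cholesterol, log2; interaction 1.96 ± 0.17, adjusted p = 0.00604), and the deprived arrays lay between those of the worms given cholesterol. The gene cnc-6 lost its fall (interaction 2.26 ± 0.24, adjusted p = 0.0131), as its fasted deprived arrays read 131 and 205 against 40.9 and 70.5 with cholesterol. Further peptide genes, added after their values were seen, were cnc-2 (1.32 ± 0.20), nlp-31 (1.18 ± 0.16), the antibacterial factor-related abf-5 (1.18 ± 0.19) and the fungus-induced-protein-related genes fipr-24 (1.67 ± 0.26) and, by the naming rule, fipr-26 (1.62 ± 0.24).

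Further lost or blunted falls were those of single genes of different families. The lipase-related gene lips-14 read 222 and 175 in fed and 23.2 and 21.3 in fasted worms given cholesterol, and 21.3 and 26.2 in fed and 20.1 and 17.6 in fasted deprived worms. Its fed deprived arrays were as low as all fasted arrays, and the interaction was 2.78 ± 0.21, adjusted p = 0.00344; the other groups lay close to 4.69, the log2 signal below which 25% of all values fall. The cuticle collagen gene col-183 read 1085 and 549 in fed and 75.7 and 58.9 in fasted worms given cholesterol, and 97.7 and 60.6 in fed and 41.6 and 31.1 in fasted deprived worms. Its fed arrays with cholesterol stood above all others (interaction 2.44 ± 0.22, adjusted p = 0.00665), and it was the 1 collagen called among 144, against 0.543% of all genes. H39E23.3 behaved alike (interaction 3.90 ± 0.51, adjusted p = 0.0248), with its fed deprived arrays at 53.1 and 70.4 against 1329 and 813 with cholesterol. Its probe set's name ends in _x_at, so other genes may add to its signal. In contrast, the cytochrome P450 gene cyp-13A5 read 1013 and 932 in fed and 43.5 and 96.8 in fasted worms given cholesterol, and 2546 and 2163 in fed and 1176 and 1094 in fasted deprived worms. Here the fed arrays of both states were high and only the fasted worms given cholesterol were low (interaction 2.83 ± 0.42, adjusted p = 0.0389). F14H12.3 (2.00 ± 0.17, adjusted p = 0.00444; 1.35 with adjusted p = 0.0662 on a second probe set) and srlf-3 (2.06 ± 0.16, adjusted p = 0.00375) also had their lowest arrays in fasted worms given cholesterol, and deprivation raised both in fed worms as well (1.64 ± 0.12 and 1.17 ± 0.11). Of 64 UDP-glucuronosyltransferases, which conjugate lipophilic compounds, 3 had a higher and 1 a lower interaction, against 0.304% and 0.24% of all genes. The higher ones were ugt-41 (2.39 ± 0.22, adjusted p = 0.00715), ugt-46 (1.19 ± 0.16) and ugt-25 (1.42 ± 0.21), and the lower one was ugt-44 (-1.49 ± 0.22). The folate transporter gene folt-2 fell at both states (-3.82 with and -2.03 without cholesterol, interaction 1.79 ± 0.22, adjusted p = 0.0231).

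Transthyretin-related genes, a nematode family of small secreted proteins mostly without known function, showed turned and lost falls. Of 40 members, 5 had a higher and 0 a lower interaction, against 0.304% and 0.24% of all genes, and the rest neither. The median was -0.07, near that of all genes. The gene ttr-29 read 163 and 117 in fed and 74.0 and 52.7 in fasted worms given cholesterol, and 238 and 231 in fed and 504 and 329.7 in fasted deprived worms. With cholesterol it fell on fasting, without cholesterol it rose, and the fasted deprived arrays were the highest of all 8 (interaction 1.93 ± 0.20, adjusted p = 0.0131). Its neighbour ttr-27, 2 protein-coding genes away in the RefSeq order, turned as well (-0.95 with and 0.61 without cholesterol, interaction 1.55 ± 0.18, adjusted p = 0.0171). The genes ttr-26 (1.25 ± 0.17) and ttr-23 (1.90 ± 0.31) lost their falls, and ttr-21 (1.02 ± 0.15) rose on fasting without cholesterol and did not pass with it (-0.31 with and 0.71 without cholesterol). Fasted deprived worms were called higher than fasted worms given cholesterol for all 5 genes. Fed deprived worms were called higher than fed worms given cholesterol for ttr-21, ttr-27 and ttr-29. The positive interaction by which the 5 were picked requires a higher fasted or a lower fed level on deprivation, so the fasted count is no separate test. Of the 40 members, deprivation was called higher for 7 and lower for 4 in fasted worms, against 2.16% and 1.51% of all genes. In fed worms it was called higher for 6 and lower for 5, against 1.95% and 2.75%. The gene ttr-23 was named after its values were seen.

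A handful of further genes turned. F42A10.7 read 109 and 92.2 in fed and 282 and 278 in fasted worms given cholesterol, and 75.1 and 79.3 in fed and 48.9 and 40.1 in fasted deprived worms. It rose on fasting with cholesterol (1.47 ± 0.12) and fell without (-0.79 ± 0.12), the fed groups differed by -0.37 ± 0.12 (adjusted p = 0.143), and the interaction was -2.26 ± 0.17, adjusted p = 0.00344. Y110A2AL.3 likewise rose with and fell without cholesterol (0.53 with and -0.68 without cholesterol, interaction -1.203 ± 0.17, adjusted p = 0.0332), and F59A7.2 fell with and rose without (-0.90 with and 0.93 without cholesterol, interaction 1.84 ± 0.21, adjusted p = 0.0171). C23G10.11 rose by 2.45 ± 0.27 with cholesterol, and its value of -0.54 ± 0.27 without did not pass (interaction -2.99 ± 0.38, adjusted p = 0.0247); deprivation had raised it by 4.23 ± 0.27 in fed worms. The 2 fasted arrays with cholesterol lay at 122 and 348, a wide spread.

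**Figure D3:**
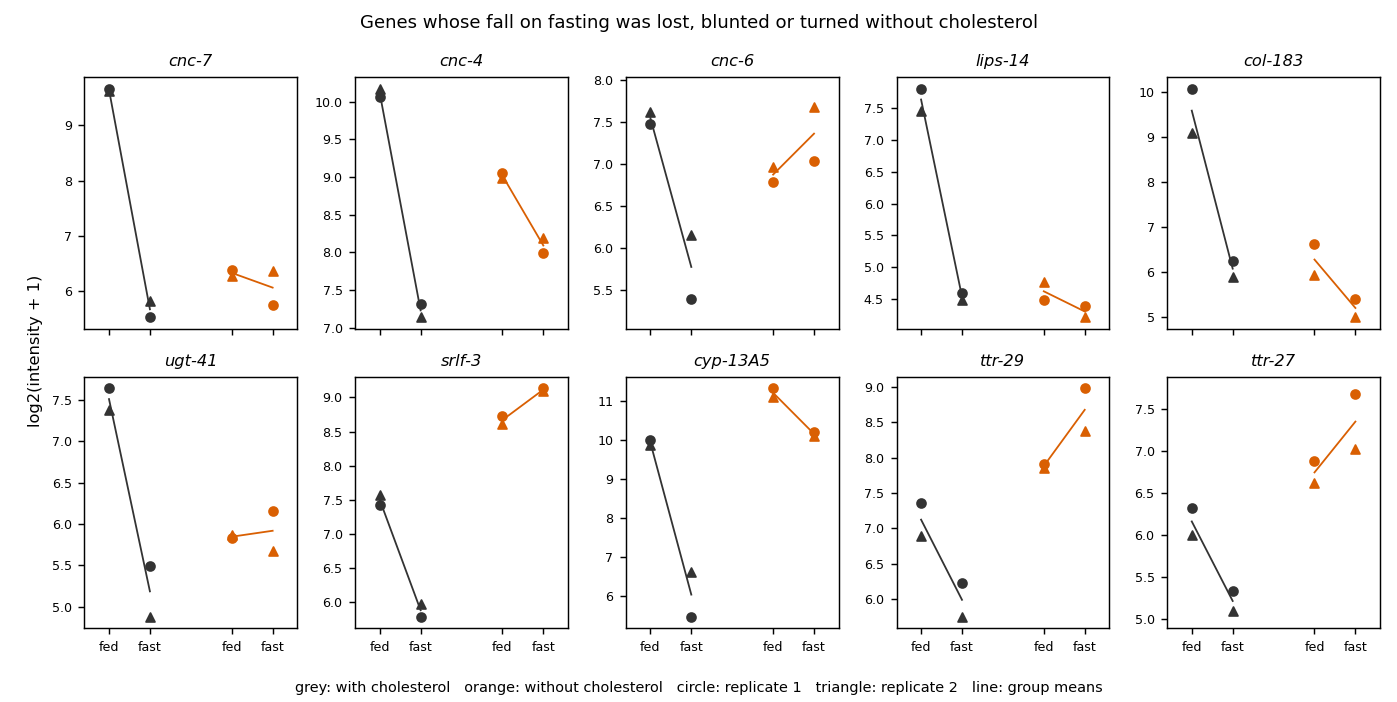
Log2(intensity + 1) on each array for 10 genes whose fall on fasting was lost, blunted or turned without cholesterol, with marks as in the plot of lost rises (dark grey with and orange without cholesterol, circles replicate 1, triangles replicate 2). In the panels of cnc-7, lips-14, col-183 and ugt-41 the fed deprived arrays are low, and in those of srlf-3, cyp-13A5, ttr-29 and ttr-27 the fasted deprived arrays are high.

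Lysozyme, lysosomal and lectin genes were among those with the reverse pattern, a fall on fasting that was larger in deprived worms. In 18 genes the fall was enlarged, from a median of -1.63 with to -3.34 without cholesterol, and in 7 it was gained. The medians follow in part from the sorting. Of the 18, 15 were called lower in fasted deprived worms than in fasted worms given cholesterol, against 1.51% of all genes. In fed worms 4 were called higher and 3 lower on deprivation, against 1.95% and 2.75%. The negative interaction by which the 18 were picked requires a higher fed or a lower fasted level on deprivation, so these counts are no separate test. The lysozyme gene lys-2 read 5968 and 5393 in fed and 652 and 507 in fasted worms given cholesterol, and 3081 and 2939.7 in fed and 83.8 and 84.2 in fasted deprived worms. All 3 other groups lay above the fasted deprived arrays, by more than the spread within any group. The fall was 9.86-fold with and 35.4-fold without cholesterol (interaction -1.85 ± 0.17, adjusted p = 0.00665); the probe set's name ends in _s_at, so other lysozymes may add to it. The neighbouring gene lys-1 fell at both states (-2.08 with and -3.42 without cholesterol, interaction -1.35 ± 0.17, adjusted p = 0.0247), as did lys-8 (-1.89 with and -3.12 without cholesterol, interaction -1.23 ± 0.18, adjusted p = 0.0389). The invertebrate-type lysozyme gene ilys-5 went from 15999 and 15969.8 to 329 and 445 with cholesterol and from 10956 and 10124 to 86.2 and 85.3 without (interaction -1.54 ± 0.20, adjusted p = 0.0255), and its other probe sets gave -1.72 and -1.98; all 3 may pick up related genes. The saposin-like gene spp-8, whose family members include pore-forming antibacterial proteins, changed by -0.26 with and -2.54 without cholesterol (interaction -2.28 ± 0.28, adjusted p = 0.0215), and its second probe set gave -2.36 (adjusted p = 0.0597). Among 57 lysozyme, saposin-like and antimicrobial peptide genes, the interaction was called higher for 6 and lower for 6, against 0.304% and 0.24% of all genes. The higher ones were cnc-2, cnc-4, cnc-6, cnc-7, nlp-31 and abf-5, and the lower ones lys-1, lys-2, lys-8, ilys-5, spp-8 and spp-27. The members lys-1, lys-8 and ilys-5 were described after their values were seen.

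The digestive enzymes of the lysosome included 2 aspartyl proteases with a deeper fall. The aspartyl protease gene asp-3 read 5943 and 5195 in fed and 5347 and 4419.6 in fasted worms given cholesterol, and 4007 and 4536 in fed and 722 and 868 in fasted deprived worms. It did not pass on fasting with cholesterol (-0.19 ± 0.15, adjusted p = 0.413) and fell 5.38-fold without (interaction -2.23 ± 0.21, adjusted p = 0.0081), and only the fasted deprived arrays stood apart. Its relative asp-1 fell at both states (-1.43 with and -3.02 without cholesterol, interaction -1.58 ± 0.20, adjusted p = 0.023). Of 44 lysosomal protease and proton pump genes, 3 had a lower interaction (asp-3, asp-1 and cpr-2) and 0 a higher one, against 0.24% and 0.304% of all genes. The lysosomal acid lipase gene lipl-1 read 346 and 359 in fed and 532 and 281 in fasted worms given cholesterol, and 185 and 251 in fed and 24.2 and 38.9 in fasted deprived worms. The fasted deprived arrays were again the low ones; the fasted arrays with cholesterol were spread widely, and the interaction was -2.90 ± 0.45, adjusted p = 0.0422. The acid ceramidase gene asah-1, which splits ceramide in the lysosome, changed by -0.50 with and -3.26 without cholesterol (interaction -2.76 ± 0.38, adjusted p = 0.0308), and its value with cholesterol did not pass (adjusted p = 0.242). In the lipase-related gene lips-11 the larger fall started from a higher fed level, 1101 and 1086 in fed deprived worms against 155 and 249, and ended close to the fasted level with cholesterol, 37.4 and 35.4 against 38.9 and 38.2 (interaction -2.55 ± 0.26, adjusted p = 0.011). Of 28 lipases, 1 had a higher (lips-14) and 2 a lower interaction (lips-11 and lipl-1), against 0.304% and 0.24% of all genes.

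The C-type lectins, a large family of secreted and membrane carbohydrate-binding proteins, had 4 lower and 0 higher interactions among 220, against 0.24% and 0.304% of all genes. The 4 were clec-62 (-1.83 ± 0.16, adjusted p = 0.00604), clec-5 (-1.07 ± 0.14), clec-42 (-1.04 ± 0.14) and clec-63 (-1.05 ± 0.15). Among uncharacterised genes with abundant transcripts, T21H3.1 read 7496 and 6882 in fed and 3133 and 2683 in fasted worms given cholesterol, and 6886 and 6270.1 in fed and 694 and 543 in fasted deprived worms (interaction -2.11 ± 0.15, adjusted p = 0.00284). Its fed arrays differed little between states, and the fasted deprived arrays were the lowest, as they were for ZK1320.2 (interaction -1.99 ± 0.14, adjusted p = 0.00284) and T18H9.11 (-1.97 ± 0.28, adjusted p = 0.031). The heme-responsive gene hrg-11.2 fell at both states (-4.72 with and -5.98 without cholesterol, interaction -1.27 ± 0.16, adjusted p = 0.0233). Further gained falls were those of F35C8.5 (-1.29 ± 0.20) and H02F09.3 (-1.39 ± 0.22). Beside these falls stood the intestinal markers: of 20 measured, 10 fell and 2 rose with cholesterol, 10 fell and 0 rose without (7.31% and 3.98% of all genes fell with and without), and asp-1 was the 1 with a called interaction, against 0.543% of all genes. Their summed intensity was 23306 to 25151 in fed and 9291 to 9677 in fasted worms given cholesterol, and 21728 to 24031 in fed and 8627 to 8694 in fasted deprived worms. These sums include asp-1, at 2221 and 2701 in fasted worms given cholesterol and 844 and 1200 in fasted deprived worms. Sums without asp-1 were not made. The median interaction of the 20 markers was -0.20 against -0.067 over all genes, and the part of intestinal RNA in these results was not tested.

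**Figure D4:**
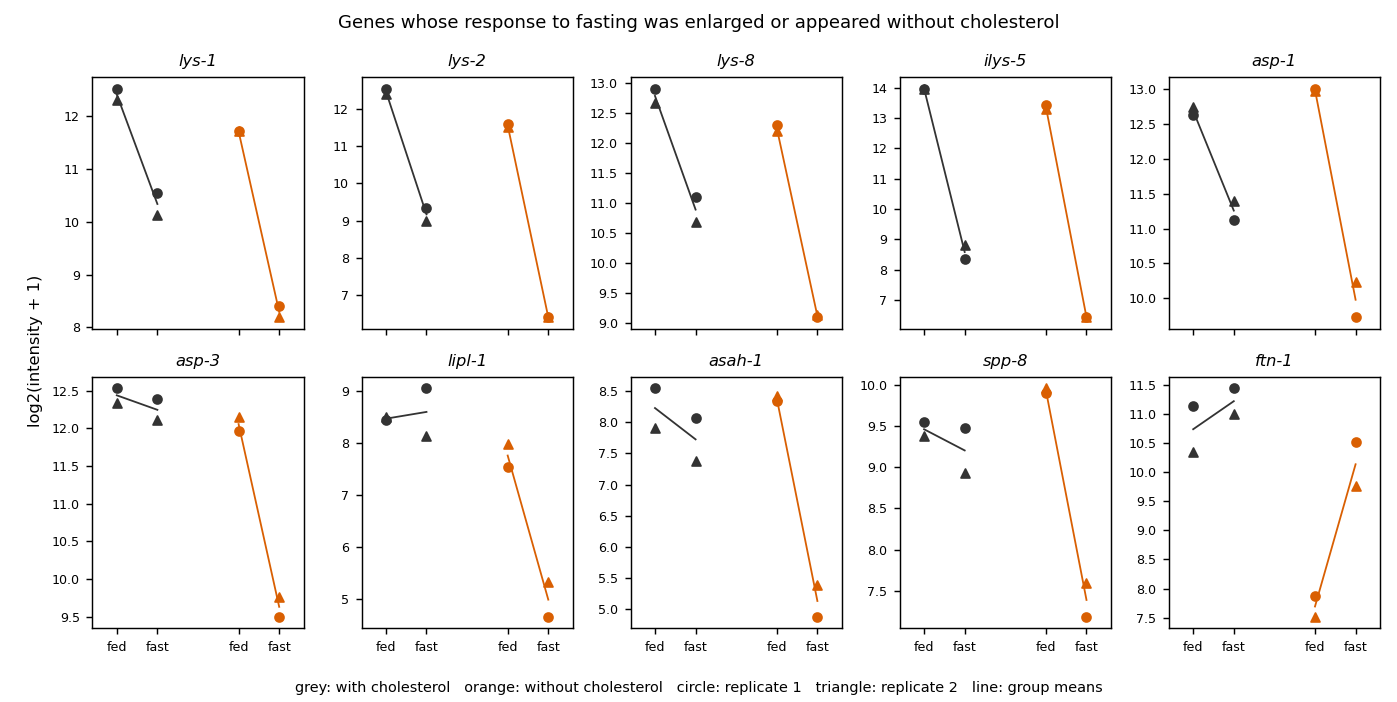
Log2(intensity + 1) on each array for 9 genes with an enlarged or gained fall and for ftn-1, whose rise was gained, with dark grey for worms given cholesterol, orange for deprived worms, circles for replicate 1 and triangles for replicate 2. In the panels of the 9 falling genes the fasted deprived arrays are the lowest of the 8.

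Few genes rose on fasting more strongly without cholesterol. The ferritin heavy chain gene ftn-1, whose product stores iron, is listed among DAF-16 targets. Its probe set's name ends in _s_at, so other genes may add to its signal. The gene read 2241 and 1299 in fed and 2787 and 2037 in fasted worms given cholesterol. It read 233 and 182 in fed and 1460.3 and 864 in fasted deprived worms. Fed deprived worms were low and the other groups were high or between, so the rise of 2.44 ± 0.13 without cholesterol started from a lower level (interaction 1.96 ± 0.19, adjusted p = 0.00853; deprivation in fed worms -3.04 ± 0.13). The cuticle matrix gene noah-1 was also lowest in fed deprived worms, with 166 and 145 in fed deprived worms against 847 and 813 with cholesterol (interaction 1.74 ± 0.19, adjusted p = 0.0134), but its second probe set did not pass (0.43 ± 0.21), and F53B3.5 followed (1.49 ± 0.20, with 2 further probe sets uncalled at 1.33 and 0.51). The glutathione S-transferase gene gst-14 was dim except in fasted deprived worms, at 79.0 and 108 against 14.6 and 13.3, 16.42 and 15.4 and 17.7 and 22.5 in the other groups (interaction 1.98 ± 0.22, adjusted p = 0.0171). The galectin gene lec-7 (1.44 ± 0.17, adjusted p = 0.0204), the neprilysin-family gene nep-14 (1.16 ± 0.16, adjusted p = 0.0308) and the F-box gene fbxa-24 (0.97 ± 0.15) also rose on fasting without cholesterol and did not pass with it; of 3 further lec-7 probe sets 1 was called (1.61) and 2 were not (0.56 and 0.95). An enlarged rise was found in 2 genes, ZC204.12 (0.59 with and 1.68 without cholesterol) and the carboxylesterase gene cest-1.2 (0.57 with and 1.47 without cholesterol).

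An interaction can come from fed worms, from fasted worms or from both. The deprivation effects in fed and in fasted worms use separate arrays, but their calls share the estimate of the spread. In 36 of the 93 genes the deprivation effect in fed worms was at least 2 times that in fasted worms, in 42 the reverse held, and in 15 neither did. Of 13 lost or blunted rises, 8 lay on the fed side and 3 on the fasted side, and of 38 lost or blunted falls 18 and 13 did; of 18 enlarged falls, 1 lay on the fed side and 13 on the fasted side. These counts describe fitted values of genes already called for the interaction and were not tested. In fed worms deprivation was called higher for 28 and lower for 32 of the 93 genes, against 1.95% and 2.75% of all genes. In fasted worms it was called higher for 28 and lower for 28, against 2.16% and 1.51%. The 93 were picked by the interaction, so these counts follow from it in part.

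**Figure D5:**
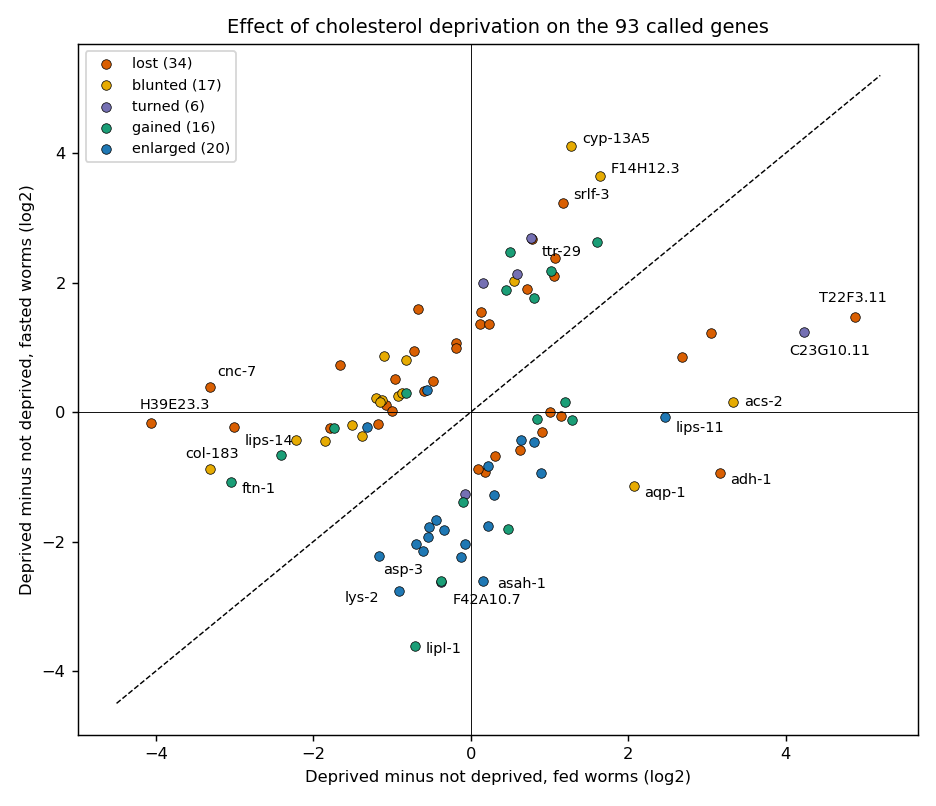
Deprived minus not deprived log2 difference in fed worms (x axis) and in fasted worms (y axis) for the 93 called genes, coloured by how the fasting response differed. The vertical distance from the dashed line is the interaction; adh-1, acs-2, cnc-7 and lips-14 lie far from 0 along the fed axis, and lipl-1, asah-1, lys-2 and cyp-13A5 along the fasted axis.

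Several gene lists and marker sets gave no call for the interaction, some of which also changed little on fasting. Among 39 fatty acid oxidation enzymes other than acyl-CoA synthetases, 0 passed the limma test, although acs-2 was 1 of 23 synthetases; 17 desaturases, elongases and synthase genes and 5 vitellogenins gave 0 as well. At an unadjusted p under 0.05 these lists held 7, 2 and 1. The nuclear hormone receptors (255 genes), cytosolic ribosomal proteins (73), respiratory chain and ATP synthase genes (50), proteasome subunits (33), ABC transporters (52), autophagy genes (26) and insulin-like peptides (24) had 0 called. Their counts at an unadjusted p under 0.05 were 30, 0, 3, 0, 10, 2 and 3, and that over all probe sets 3446 (15.28%). At 0.543% of all genes called, a list of this size would hold few calls in any case. Tissue and stage markers were called for 0 of 24 body wall muscle, 0 of 26 neuronal, 0 of 35 germline and oocyte, 0 of 62 sperm and 0 of 46 zygotic embryo genes, with 5, 5, 0, 7 and 11 at an unadjusted p under 0.05. On fasting, body wall muscle genes fell in part (11 of 24 with and 11 without cholesterol), and so did cuticle collagens (37 and 41 of 144), against 7.31% of all genes with and 3.98% without. The summed intensity of the muscle markers was 21254 to 22114 in fed and 14024 to 18178 in fasted worms given cholesterol, and 16144 to 16286 in fed and 8190 to 11543 in fasted deprived worms, and its part in the results above was not tested.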

How the data were processed

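Transcripts of whole worms were measured on 8 1-colour Affymetrix arrays, from 100 ng of total RNA each, per the labels' protocols. The deposited intensity values, 1 per probe set and array, were made by the authors with RMA, which subtracts background, equalises arrays and summarises probes, per the submitters' processing notes; they are on a linear scale, their version and annotation build are not given in the sources used here. Precision is limited by how few arrays there are.

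Of 22625 probe sets, 77 controls were left out and 22548 tested. The platform annotation gave 1 symbol to 20766, several to 887 and none to 895; 20701 matched the RefSeq table of WBcel235, used for names, chromosomes and gene order. A gene (17118 in all) was read from its brightest probe set on average. Values were taken as log2(intensity + 1). Models were fitted with limma 3.58.1 in R 4.3.3 by lmFit and eBayes and had 4 group means and the replicate number as a block, with 3 residual and 5.02 prior degrees of freedom; tests were two-sided, adjusted by Benjamini-Hochberg over all probe sets, and called under 0.05. Values after ± are standard errors of that fit. The fit was tested on simulated arrays. Deviations of same-numbered arrays from their group means correlated at r = 0.22 to 0.53 over 6 pairs of groups, so the numbers were taken to pair the samples, a hint from the data and not from the labels.

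The members and gene lists were chosen with earlier results of these data known. The naming rule took up to 6 genes of each response class and direction with the largest interaction and the same sign in both replicates, up to 4 called members of each of 42 lists and a panel of 26 genes. It also took the 6 genes with the smallest interaction among those changed at least 4-fold the same way at both states. The alternatives were no block, cyclic loess, the bright-set shift, a pseudocount of 16, leaving out the dimmest 40% or probe sets ending in _s_at or _x_at, a mean-variance trend, and leaving out each array. No sequences were used here. Plots were made with Python 3.11.15 and matplotlib 3.10.9.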

Additional observations from a re-analysis of the deposited data

Results flagged for a closer look

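The difference between the fasting responses of the 2 cholesterol states, which is the comparison reported above, was called for 93 genes. In 6 of 17118 genes the responses were each called and ran in opposite directions, with an interaction of -2.26 for F42A10.7 and -1.203 for Y110A2AL.3, which rose with and fell without cholesterol. The other 4 fell with and rose without it: ttr-29 (1.93), F59A7.2 (1.84), ttr-27 (1.55) and C33D9.6 (1.12, with responses of -0.48 with and 0.64 without cholesterol). The test of each difference is the interaction itself, and each group holds 2 arrays, too few to look for single outlying arrays.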

How the results depend on the processing

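No called gene changed the sign of its interaction in any of the alternatives, and the calls themselves moved. The counts below are of probe sets, given in the order interaction of fasting and cholesterol deprivation, fasting effect with cholesterol, fasting effect without cholesterol, cholesterol deprivation effect in fed worms and cholesterol deprivation effect in fasted worms. Without the replicate block they were 22, 1164, 656, 273 and 249, in place of 115, 3106, 1730, 988 and 785; all of these were also called with the block, and 18 of the 93 genes kept their call. With a pseudocount of 16, 14 were called for the first and 495 and 509 for both deprivation effects, 11 of the 93 genes kept their call, and the cause was not tested. Leaving out the _s_at and _x_at sets gave 1964 and 1114 calls for fasting, from 15837 sets tested. Without each array in turn, which removes 1 of 3 residual degrees of freedom and rests a group on 1 array assumed to vary like the rest, the counts ranged from 20 to 100 for the interaction, 1100 to 3092 and 497 to 1817 for fasting with and without cholesterol, and 215 to 1109 and 260 to 831 for deprivation in fed and fasted worms. Cyclic loess, the bright-set shift and the variance trend kept 80, 88 and 88 of the 93 genes, and without the dimmest 40%, 83 of 86 still tested passed. After the bright-set shift the share of higher calls went from 48.4% to 69.9% for fasting with cholesterol and from 59.2% to 47.6% for deprivation in fasted worms. In 6 of the 93 genes at least 1 group mean lay below the lower quartile of log2 values, the low end of the signal range. In 25 of the 93 the probe set's name ended in _s_at or _x_at, so other genes may add to the signal.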

Other observations

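Some called genes were neighbours. Of 90 called genes with a place in the RefSeq order, 13 formed 7 pairs within 3 protein-coding genes of each other, and 5 of the 7 pairs had the same direction: clec-62 with clec-63, cnc-4 with cnc-2, lys-1 with lys-2, ttr-27 with ttr-29, and ttr-26 with Y51A2D.13. The other two ran in opposite directions: spp-8 (-2.28) lies next to srlf-3 (2.06), and lipl-1 (-2.90) close to ttr-29 (1.93). The probe sets of clec-62, cnc-2 and lys-2 have names ending in _s_at or _x_at and may pick up the related neighbour, which was not tested. How many such pairs any set of genes of this size would hold was not worked out. Chromosome V held 38 of the 93 genes, 0.88% of its 4316 tested genes, against 0.311% to 0.637% on the other nuclear chromosomes.

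In 7 genes the called probe set was not the one that represents the gene. The branched-chain fatty acid gene acs-1 had 1.26 ± 0.15 (adjusted p = 0.0204) on such a set and 0.89 (adjusted p = 0.154) on its brightest, clec-65 had -1.61 and -1.58, F54D5.3 -1.16 and -1.14, and ugt-50 1.14 and 0.59. For pgp-14 the values were 1.09 and 0.40, for gly-8 1.13 and 0.39, and for fmo-4 1.09 and 0.34.

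Further genes with a lost or blunted fall, named after their values were seen, were ptps-1, which makes a precursor of tetrahydrobiopterin (1.47 ± 0.16, adjusted p = 0.0134), the inositol transporter gene hmit-1.1 (1.41 ± 0.21, adjusted p = 0.0394), the flavin monooxygenase gene fmo-3 (1.18 ± 0.16, adjusted p = 0.0288), cbl-1 (1.30 ± 0.15, adjusted p = 0.0171) and the transcription factor gene blmp-1 (1.01 ± 0.15, adjusted p = 0.0396). Those of ptps-1 and cbl-1 also passed without the block.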
